A study of Mus musculus with 11 samples.

Results

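The genes described here code for the metalloproteases that cut extracellular matrix and cell surface proteins, and for their inhibitors. They were all symbols made of Mmp, Adam, Adamts or Adamtsl and a digit, together with Timp1, Timp2, Timp3, Timp4 and Reck. The rule found 85 genes among the 45803 of each expression table: 23 Mmp, 33 Adam, 19 Adamts, 5 Adamtsl and 4 Timp genes, and Reck. RNA was taken from adult C57BL/6 mice, either wild type or Eltd1-/-, which lack the endothelial adhesion receptor Eltd1 (current symbol Adgrl4). The mice carried a transgene in which the VE-cadherin promoter, active in endothelium, drives a ribosomal protein fused to green fluorescent protein (eGFP-L10a), so that messenger RNA on tagged ribosomes could be pulled down with antibody-coated beads. Tumours had been grown in the brain from GL261, a mouse glioma cell line. The groups were tumour of wild type mice (n = 3), tumour of Eltd1-/- mice (n = 2; the protocol speaks of 3 per group, and 2 were analysed here), healthy brain of wild type mice (n = 3) and healthy brain of Eltd1-/- mice (n = 3), each library from a separate mouse sample per the labels' protocol.

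Matrix metalloproteases (Mmp) are zinc enzymes that are made as inactive precursors and cut collagens, laminins and other matrix proteins once activated, and some of them are anchored in the cell membrane. Most Adam proteins are membrane proteins that release the outer part of other membrane proteins, while Adamts enzymes are secreted and cut proteoglycans or trim procollagens, and Adamtsl proteins resemble them but have no protease domain. Tissue inhibitors of metalloproteases (Timp) block the active site, and Reck is a membrane-anchored inhibitor that in brain endothelium also serves Wnt7 signalling. All values here are transcript levels and say nothing of enzyme activity.

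Levels are given as FPKM, the fragments per kilobase of transcript relative to a library's mapped fragments, as the authors deposited them, so they can be compared between genes. The FPKM of a library summed to between 477911 and 641665. Between 8978 and 15433 genes were above 0. Wild type tumour replicate 2 stood apart, with 25.4% of 10903 well expressed genes listed at 0, against 0.945% to 9.78% in the other libraries. The depth in reads is unknown, and 4 of 13 mitochondrial mRNAs were at 0 in all libraries, so a gene is only said to be listed at 0. Adgrl4 itself was between 27.4 and 192 FPKM in wild type tumours and between 82.7 and 166 in wild type brains. It lay between 5.82 and 11.5 in Eltd1-/- tumours and between 21.6 and 23.6 in Eltd1-/- brains. Endothelial markers summed to 366 to 718 FPKM in tumours and 1870 to 2510 in brains, with none of the 15 listed at 0 in a whole group. Neuron markers were also present, at 96.5 to 2750 FPKM in tumours and 4030 to 5530 in brains. In pulled down RNA of whole tissue, fewer cells of a type and less RNA per cell cannot be told apart.

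A run of 10 Mmp genes lies side by side on mouse chromosome 9, between positions 7272514 and 7699585 of GRCm38, with no other protein-coding gene of RefSeq inside these 427 kb. In order they are Mmp13, Mmp12, Mmp1b, Mmp3, Mmp1a, Mmp10, Mmp8, Mmp27, Mmp20 and Mmp7. The bases before the start are printed for 6 of them, some listed above 0 in tumours and others at 0 in all libraries. Their windows were chosen for holding the AP-1 motif defined below. Its presence in each printed line is therefore fixed by the choice. Each line gives the 120 bases before a RefSeq transcript start (GRCm38.p6), 5′ to 3′. Capitals mark the AP-1 motif (TGAGTCA or its reverse complement TGACTCA) and the TATA motif (TATAAA).
Mmp13, chr9:7272394-7272513, plus strand: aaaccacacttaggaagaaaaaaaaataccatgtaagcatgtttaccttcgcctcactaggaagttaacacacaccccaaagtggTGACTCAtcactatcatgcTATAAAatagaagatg
Mmp12, chr9:7347254-7347373, plus strand: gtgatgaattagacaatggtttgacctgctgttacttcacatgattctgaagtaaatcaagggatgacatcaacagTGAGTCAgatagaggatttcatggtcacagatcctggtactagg
Mmp3, chr9:7445702-7445821, plus strand: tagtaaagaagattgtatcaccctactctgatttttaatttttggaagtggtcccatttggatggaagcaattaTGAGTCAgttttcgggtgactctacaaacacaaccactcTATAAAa
Mmp10, chr9:7502222-7502341, plus strand: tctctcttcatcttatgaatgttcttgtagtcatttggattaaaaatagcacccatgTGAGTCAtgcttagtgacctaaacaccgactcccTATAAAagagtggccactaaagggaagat
Mmp1a, chr9:7464021-7464140, plus strand: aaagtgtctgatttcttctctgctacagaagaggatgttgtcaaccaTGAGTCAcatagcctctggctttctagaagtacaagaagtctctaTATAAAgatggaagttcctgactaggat
Mmp7, chr9:7691970-7692089, plus strand: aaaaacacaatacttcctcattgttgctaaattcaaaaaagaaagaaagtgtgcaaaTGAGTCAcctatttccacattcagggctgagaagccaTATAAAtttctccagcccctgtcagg
The first 4 genes were above 0 in at least 2 tumour libraries, and the last pair, Mmp1a and Mmp7, were at 0 in all 11 libraries. For Mmp12 the start used, just after position 7347373, lies inside the gene, which begins at 7344397. A TATA motif lay just after this start and is not in the printed stretch. RefSeq windows from 250 bases before to 50 bases after a start, searched for the motifs TGAGTCA and TATAAA on both strands, with no overlap possible between them, held the AP-1 motif in 5.2% of 32851 windows, the TATA motif in 13.6% and both in 0.941%. All 10 genes of the run had a window, and 7 held both motifs, Mmp1b besides those printed. Mmp8, Mmp27 and Mmp20 did not hold the AP-1 motif. Outside the run, 3 of 44 members with a window held the AP-1 motif. A match describes the letters and does not show that a factor binds there.

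Of the 85 genes, 23 were listed at 0 in all 11 libraries, 7 of them Mmp and 16 Adam genes. The 23 and 15 others were not tested, because testing required at least 1 FPKM in at least 2 libraries, and 47 genes passed this filter. It admits genes that are high in a single group, so the counts over the 47 only describe them. Another 15 genes were above 0 in all libraries, and 6 were above 0 in tumour libraries alone.

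The first question was how tumour vessels differ from brain vessels. Changes were tested with limma on log2(FPKM + 1) over all 15604 genes that passed the filter, and all log2 changes below are on this scale. It makes the change of low genes look smaller. In wild type mice 14 of 47 members differed between tumour and brain, 5 higher and 9 lower in tumour. Over all genes 19.4% passed, 7.7% higher and 11.7% lower. In Eltd1-/- mice 7 of 47 members differed, 5 higher and 2 lower, against 7.08% of all genes, 4.79% higher and 2.29% lower. All 7 were among the 14 of wild type mice, which is 50% of the wild type calls and 100% of the Eltd1-/- calls. The comparisons share no library, but the fit takes 1 spread per gene from all 11 libraries. These calls are therefore not independent. With only the groups compared in the fit, the counts were 3 in wild type and 14 in Eltd1-/- mice. The counts of either genotype therefore do not show in which one more members differed. In wild type mice the count dropped to 7 when wild type brain replicate 2 was left out, and to 9 when wild type brain replicate 1 or any replicate of Eltd1-/- brain was. The Eltd1-/- count was 0 without either of its tumour replicates, where the lone sample borrows its spread from the other libraries, and 3 or 4 without wild type brain replicate 3 or any replicate of Eltd1-/- brain.

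Averaged over both genotypes, 20 of 47 members differed between tumour and brain, 10 higher and 10 lower, against 30.2% of all genes, 12.6% higher and 17.6% lower. This average uses the same libraries as the comparisons within each genotype, and its count was 12 without Eltd1-/- tumour replicate 1. The higher members were Mmp2, Mmp12, Mmp13, Mmp14, Adam8, Adamts1, Adamts9, Adamts12, Adamts14 and Timp1. The lower members were Mmp24, Mmp28, Adam11, Adam15, Adam22, Adam23, Adamts3, Timp2, Timp3 and Reck. Of the lower members only Adam23 and Timp2 passed within Eltd1-/- mice. Adam8, Adam11, Adamts1, Adamts9, Adamts12 and Mmp14 passed in neither genotype alone. The wild type calls of Adam15 and Adam22 were each lost in 14 of 21 alternatives, and those of Adamts3 and Reck in 15. In the average the median log2 change was 0.84 over 12 Mmp genes, 0.06 over 10 Adam genes, -0.21 over 15 Adamts genes, -0.37 over 5 Adamtsl genes and -0.91 over 4 Timp genes. It was -0.19 over all 47 members and -0.25 over all genes. Every tumour library was above every brain library in 7 of 47 members, against 8.73% of all genes. Every tumour library was below every brain library in another 7, against 12.3% of all genes. Among the first 7, Mmp12, Mmp13, Adamts12, Adamts14 and Timp1 passed the filter through tumour libraries alone, so this count only describes them.

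**Figure D1:**
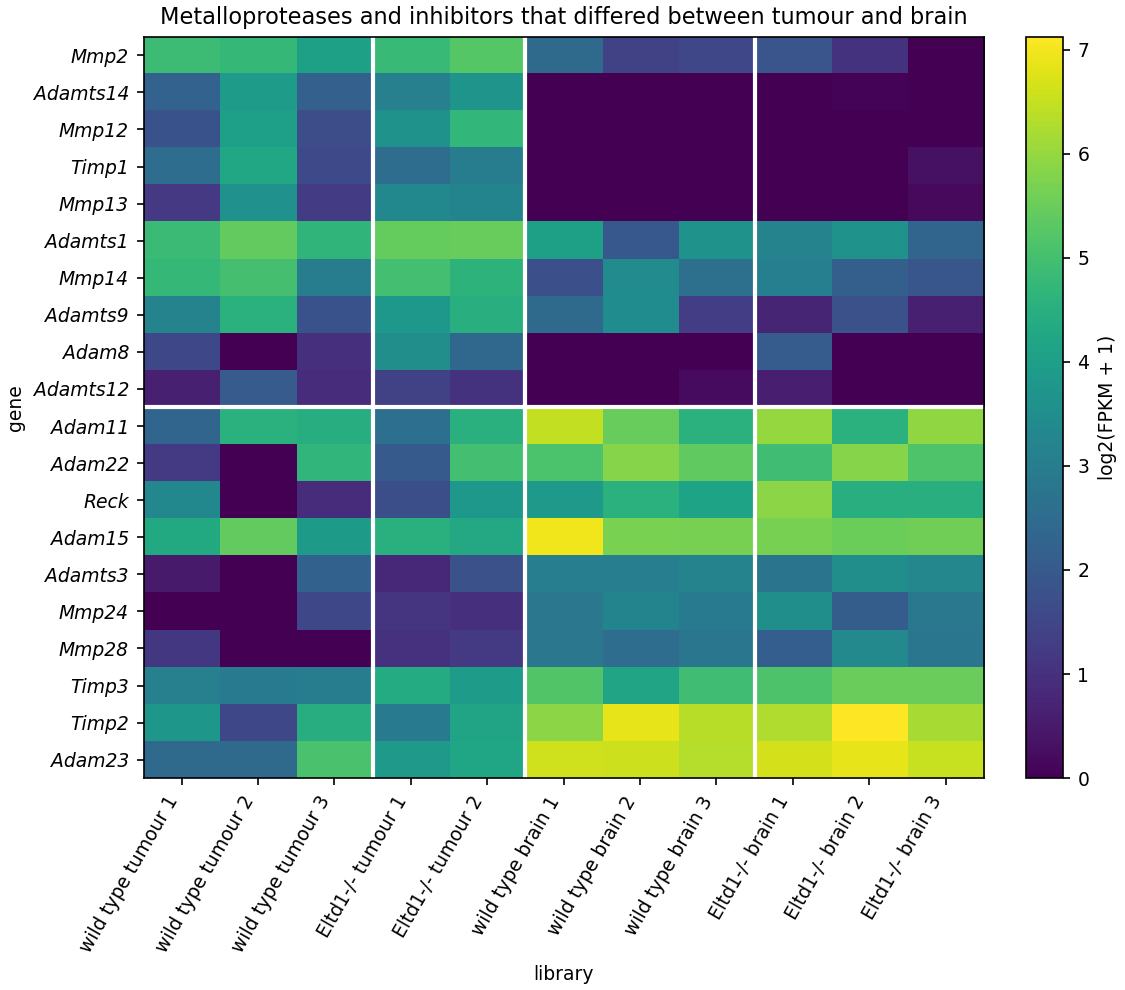
Each row is 1 of the 20 members that differed between tumour and brain (10 higher above the white line, 10 lower below it), each column 1 of the 11 libraries, and the colour is log2(FPKM + 1). Adamts14, Mmp12, Mmp13 and Timp1 are at or near 0 in the 6 brain libraries, and wild type tumour replicate 2 is at 0 for Adam8, Adam22, Reck, Adamts3, Mmp24 and Mmp28.

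The tumour libraries also held more RNA of glioma and neural progenitor markers, whose sum was 492 to 866 FPKM in tumours and 180 to 390 in brains. In the average over genotypes 7 of 10 were higher and 2 lower, against 12.6% and 17.6% of all genes, with a median log2 change of 2.33. Within wild type mice 6 were higher and 1 lower, and within Eltd1-/- mice 5 and 0. The part of glioma cell RNA in the members that rose was not tested.

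Among the gelatinases, which cut denatured collagen and basement membrane collagen, Mmp2 stood higher in tumour. Its level was 28.7, 25.6 and 15.7 FPKM in wild type tumours and 27.2 and 37.2 in Eltd1-/- tumours. In wild type brains it was 4.52, 1.60 and 1.85, and in Eltd1-/- brains 2.70, 1.05 and 0. The groups did not overlap in either genotype. The change from brain to tumour in log2 was 2.78 (SE 0.63; limma, adjusted p = 0.0121) in wild type and 4.06 (SE 0.70; adjusted p = 0.00609) in Eltd1-/- mice, where the call was lost without tumour replicate 1 (0.0698) or 2 (0.0811). Mmp9, the other gelatinase, was listed at 0 in 9 of 11 libraries, with 0.56 FPKM in Eltd1-/- tumour replicate 2 and 1.17 in wild type brain replicate 3, and was not tested.

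Of the run on chromosome 9, Mmp12 (macrophage elastase) and Mmp13 (a collagenase) were above 0 in 5 of 5 tumour libraries. Mmp12 was at 2.45, 15.1 and 2.22 FPKM in wild type tumours and at 11.3 and 25.5 in Eltd1-/- tumours, and was listed at 0 in the 6 brain libraries. Mmp13 was at 1.26, 11.0 and 1.42 in wild type tumours, at 9.00 and 8.28 in Eltd1-/- tumours, and at 0 in the brain libraries except Eltd1-/- brain replicate 3, at 0.13. Within wild type tumours, replicate 2 was the highest for both genes. No fold is given against groups listed at 0. The adjusted p for tumour against brain (limma) was 0.0249 in wild type and 0.00757 in Eltd1-/- mice for Mmp12, and 0.0475 and 0.0219 for Mmp13. The wild type call of Mmp13 was lost in 14 of 21 alternatives, among them the fit leaving out wild type tumour replicate 2 (0.0876) and the fits without any of the 6 brains (0.0674 to 0.101) or either Eltd1-/- tumour (0.0651 and 0.0658). The wild type call of Mmp12 was lost without any wild type brain (0.0602 to 0.0616). In Eltd1-/- mice the calls were lost without tumour replicates 1 or 2 for Mmp12 (0.0512 and 0.0879) and Mmp13 (0.176 and 0.113), and for Mmp13 also without any Eltd1-/- brain (0.0604 to 0.068). Mmp3 (stromelysin) was above 0 in 3 tumour libraries, up to 2.97 FPKM, and Mmp10, its close relative, in 2, up to 0.70, and neither was above 0 in a brain library. The other 6 genes of the run were at 0 throughout.

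**Figure D2:**
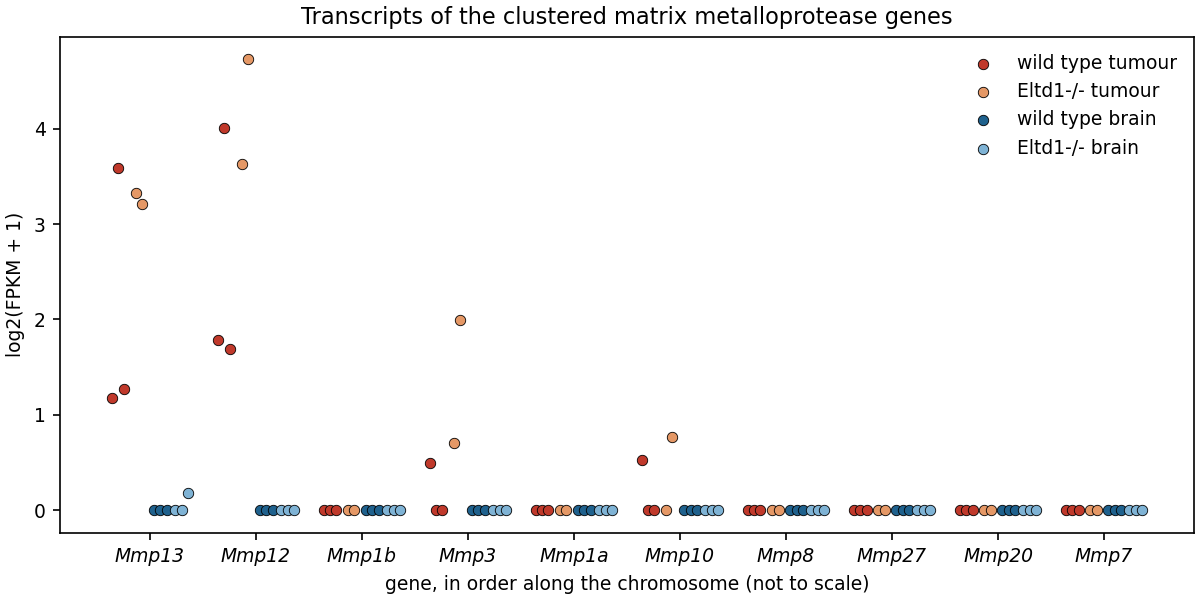
The vertical axis is log2(FPKM + 1) of each of the 10 Mmp genes of the run on chromosome 9, in their order, and each point is 1 of the 11 libraries, coloured by group. Mmp13 and Mmp12 are above 0 in the 5 tumour libraries, Mmp3 in 3 and Mmp10 in 2, while a single brain library is above 0, for Mmp13.

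Macrophage markers moved in the same direction as these genes. The 14 microglia and macrophage markers summed to 160 to 460 FPKM in tumours and 43.3 to 69.4 in brains. In the average over genotypes 10 of them rose and 0 fell, against 12.6% and 17.6% of all genes. Within wild type mice 4 rose, and within Eltd1-/- mice 3. Aif1 and Tyrobp were at 0 in the wild type brains. Of 8 neutrophil markers 7 were at 0 in wild type tumours and 6 in Eltd1-/- tumours. Adam8, a sheddase of leukocytes, was at 1.90, 0 and 0.94 FPKM in wild type tumours and 10.4 and 4.19 in Eltd1-/- tumours. It was at 0 in 5 of 6 brain libraries and at 3.25 in Eltd1-/- brain replicate 1, so the tissues overlapped. Adam8 passed in the average (limma, adjusted p = 0.0381) and lost the call without any of 8 libraries: Eltd1-/- tumour replicate 1 (0.159), wild type tumour replicates 1 (0.0804) and 3 (0.0591), wild type brain replicates 1 (0.0617), 2 (0.0626) and 3 (0.0656), and Eltd1-/- brain replicates 2 (0.0858) and 3 (0.0891). The part of macrophage RNA in the values of Mmp12, Mmp13 and Adam8 was not tested.

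Of the 6 membrane-anchored Mmp genes Mmp14 rose, Mmp24 fell and the others did not pass in the average over genotypes. Mmp14, which activates the Mmp2 precursor on the cell surface, was at 26.0, 31.4 and 6.89 FPKM in wild type tumours and at 31.0 and 23.2 in Eltd1-/- tumours. It was at 2.32, 9.89 and 5.18 in wild type brains and at 7.44, 3.47 and 2.75 in Eltd1-/- brains. Wild type tumour replicate 3, at 6.89, lay within the brain range and the other tumours lay above it. Mmp14 rose by a log2 change of 2.03 (SE 0.51; limma, adjusted p = 0.0119) in the average over genotypes, but not within wild type (1.65, SE 0.68, adjusted p = 0.11) or Eltd1-/- mice (2.42, SE 0.76, adjusted p = 0.0787). Without Eltd1-/- tumour replicate 1 the adjusted p of the average was 0.0613.

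Mmp24, a membrane-anchored enzyme first known from nervous tissue, fell. It was at 0, 0 and 1.91 FPKM in wild type tumours and at 1.15 and 0.97 in Eltd1-/- tumours, against 6.08, 8.25 and 6.75 in wild type brains and 10.7, 3.30 and 6.18 in Eltd1-/- brains. All tumours were below all brains, and the log2 change was -2.14 (SE 0.48; limma, adjusted p = 0.00672). The secreted Mmp28 (epilysin) also fell, at 1.24, 0 and 0 FPKM in wild type tumours, 1.01 and 1.32 in Eltd1-/- tumours, 6.11, 4.81 and 5.96 in wild type brains and 3.34, 9.24 and 6.00 in Eltd1-/- brains. Its log2 change was -1.99 (SE 0.44; adjusted p = 0.00634).

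Mmp15, Mmp16 and Mmp17, also membrane-anchored, did not pass in any comparison. Mmp15 was at 27.1, 1.85 and 13.3 FPKM in wild type tumours and 34.9 and 27.3 in Eltd1-/- tumours, 4.34, 6.35 and 9.00 in wild type brains and 8.86, 6.11 and 7.17 in Eltd1-/- brains. Only wild type tumour replicate 2, at 1.85, was not above the brains, and without it the log2 change in the average moved from 1.23 (SE 0.56; adjusted p = 0.118) to 1.70 (SE 0.35; adjusted p = 0.00524). Mmp16 was at 7.81, 94.0 and 7.82 FPKM in wild type tumours, 23.7 and 15.8 in Eltd1-/- tumours, 6.41, 32.7 and 3.48 in wild type brains and 8.48, 10.4 and 4.98 in Eltd1-/- brains. The highest value was in wild type tumour replicate 2. Mmp17 was at 3.48, 0.55 and 5.83 FPKM in wild type tumours, 19.3 and 7.46 in Eltd1-/- tumours and 9.09 to 15.5 in brains, so the wild type tumours lay below all brains and the Eltd1-/- tumours lay on either side of them.

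The Adam genes that fell most were 3 that lack protease activity and bind the secreted Lgi proteins at synapses and nerve fibres. Adam23 was at 4.55, 4.46 and 32.8 FPKM in wild type tumours and 13.4 and 17.4 in Eltd1-/- tumours, against 96.1, 95.4 and 80.1 in wild type brains and 101, 114 and 91.5 in Eltd1-/- brains. The highest tumour, at 32.8, was far below the lowest brain, at 80.1. The change in log2 was -3.18 (SE 0.60; limma, adjusted p = 0.0055) in wild type and -2.66 (SE 0.67; adjusted p = 0.0357) in Eltd1-/- mice. The Eltd1-/- call was lost in 10 of 21 alternatives, among them those without either of its tumours (0.266 and 0.134), any of its brains (0.0846 to 0.1) or wild type brain replicate 3 (0.0545).

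Adam22 was at 1.32, 0 and 24.7 FPKM in wild type tumours and 3.04 and 31.1 in Eltd1-/- tumours. It was at 33.7, 55.3 and 40.4 in wild type brains and 29.8, 56.3 and 34.5 in Eltd1-/- brains, so a single tumour library overlapped the brains. Its log2 change was -2.64 (SE 0.79; limma, adjusted p = 0.0267), and the call was lost without Eltd1-/- tumour replicate 1 (0.145), wild type tumour replicate 1 (0.0589), wild type brain replicate 2 (0.0529) or Eltd1-/- brain replicate 2 (0.0596). Adam11 was at 3.96, 22.6 and 20.6 FPKM in wild type tumours, 5.02 and 22.0 in Eltd1-/- tumours, 87.9, 43.4 and 22.2 in wild type brains and 62.5, 22.6 and 60.1 in Eltd1-/- brains. The tissues overlapped, with the highest tumour at 22.6 and the lowest brain at 22.2. Its log2 change was -1.83 (SE 0.57; adjusted p = 0.0315), and the call was lost without Eltd1-/- tumour replicate 1 (0.161), wild type tumour replicate 1 (0.0603), wild type brain replicates 1 (0.0675) or 2 (0.053), or Eltd1-/- brain replicates 1 (0.0703) or 3 (0.0706).

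Among the tumours the summed level of these 3 genes was lowest and highest in the same libraries as the neuron markers. It was lowest, 9.83 FPKM, in wild type tumour replicate 1, where the 10 neuron markers summed to 96.5. It was highest, 78.2 FPKM, in wild type tumour replicate 3, where they summed to 2750. Between these the order differed. The Adam sum was 21.4 in Eltd1-/- tumour replicate 1 (neuron markers 638) and 27.1 in wild type tumour replicate 2 (421). In Eltd1-/- tumour replicate 2 it was 70.6 (1270). In brains the Adam sum lay between 143 and 218 FPKM, and the neuron markers between 4030 and 5530. Of the 10 neuron markers 9 fell in tumour in the average over genotypes (8 in wild type and 1 in Eltd1-/- mice). Of 8 partners of Adam22 and Adam23 at synapses 7 fell and 0 rose in the average over genotypes, where 17.6% of all genes fell (6 fell in wild type and 0 in Eltd1-/- mice), with a median log2 change of -2.29 against -0.25 over all genes. Examples were the ligands Lgi2 (-2.68, SE 0.49) and Lgi1 (-2.93, SE 0.67), the potassium channel Kcna2 (-2.76, SE 0.56) and the release protein Stx1a (-1.97, SE 0.37). The part of neuronal RNA in these values was not tested.

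The catalytic Adam genes differed among themselves. Adam15, a membrane-anchored protease and integrin ligand of endothelium, was at 19.0, 41.7 and 13.8 FPKM in wild type tumours and 22.1 and 18.5 in Eltd1-/- tumours. It was at 124, 50.5 and 49.3 in wild type brains and 49.8, 44.8 and 46.3 in Eltd1-/- brains, above every tumour. Its log2 change of -1.37 (SE 0.36; limma) had an adjusted p of 0.0141, and of 0.0549 without Eltd1-/- tumour replicate 2. Endothelial markers fell as well, 12 of 15 in the average over genotypes (10 in wild type and 4 in Eltd1-/- mice), against 17.6% of all genes. Their median log2 change was -1.41, against -0.25 over all genes. The part of endothelial RNA yield in the value of Adam15 was not tested.

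Adam10 and Adam17, the main sheddases of Notch and of tumour necrosis factor, did not pass. Adam10 was at 20.3, 20.2 and 15.9 FPKM in wild type tumours, 33.3 and 28.8 in Eltd1-/- tumours, 37.2, 26.1 and 23.1 in wild type brains and 33.4, 33.1 and 28.1 in Eltd1-/- brains. Its log2 change in the average was -0.30 (SE 0.26). Adam17 was at 14.9, 26.6 and 11.4 FPKM in wild type tumours, 23.0 and 22.9 in Eltd1-/- tumours, 31.9, 13.6 and 9.65 in wild type brains and 7.17, 6.46 and 17.5 in Eltd1-/- brains, with a log2 change of 0.62 (SE 0.43). In both genes the tissues overlapped. Adam9, another sheddase, had a log2 change of 0.88 (SE 0.31) and an adjusted p of 0.0505 (limma), next to the threshold. Adam12 reached 85.6 FPKM in wild type tumour replicate 2 and lay between 2.54 and 9.43 in the other tumours.

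**Figure D3:**
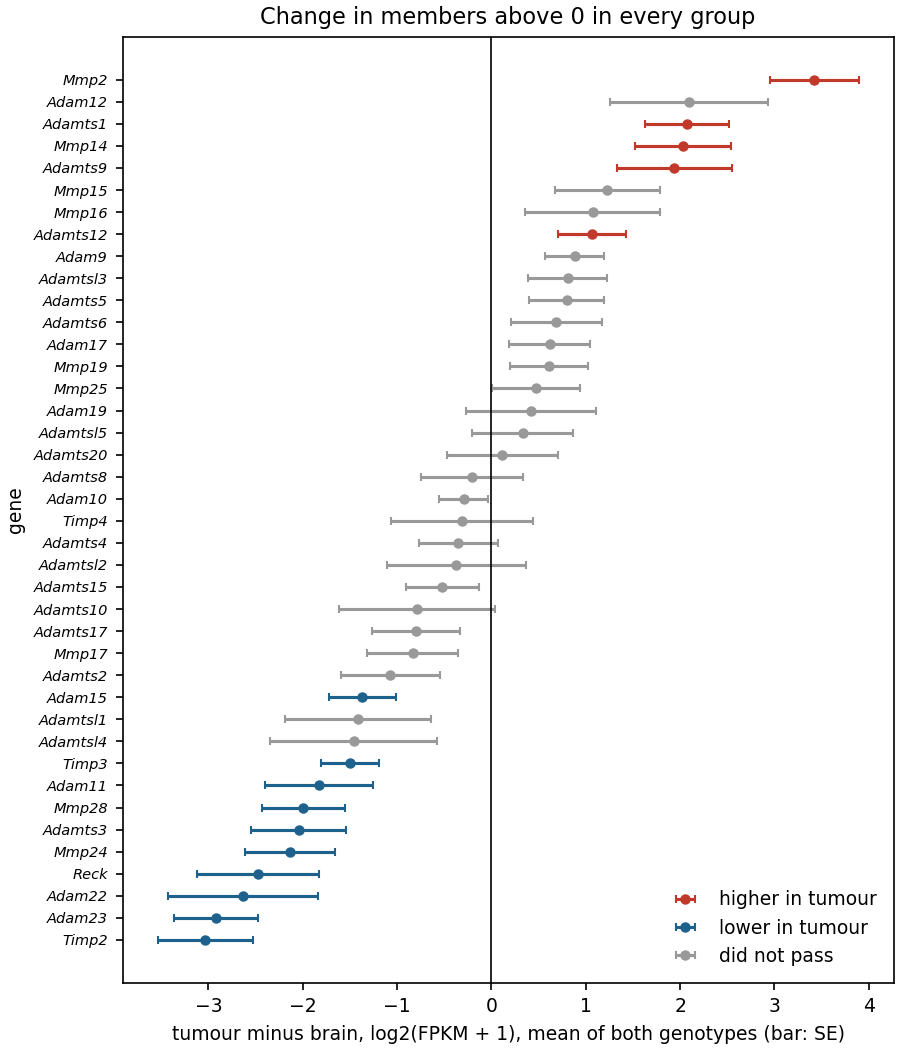
Each point is the log2 change from brain to tumour on the log2(FPKM + 1) scale, averaged over both genotypes, with its SE from limma, for the 40 tested members above 0 in at least 1 library of every group. Of these, 5 passed as higher (red) and 10 as lower (blue), from Mmp2 at 3.42 to Timp2 at -3.03; the other 7 tested members have a group listed at 0 and are not drawn.

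Of the Adamts enzymes that cut proteoglycans such as versican, Adamts1 and Adamts9 stood higher in tumour. Adamts1 was at 27.8, 41.6 and 24.2 FPKM in wild type tumours and 42.2 and 43.2 in Eltd1-/- tumours, against 15.4, 2.93 and 11.5 in wild type brains and 8.18, 11.7 and 3.99 in Eltd1-/- brains. All tumours were above all brains. Adamts1 had a log2 change of 2.07 (SE 0.44; limma, adjusted p = 0.00542) in the average, and Adamts1 just missed the threshold within wild type (adjusted p = 0.0572) and Eltd1-/- mice (0.0513).

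Adamts9 was at 8.12, 22.2 and 2.45 FPKM in wild type tumours and 13.0 and 21.6 in Eltd1-/- tumours. It was at 4.56, 10.0 and 1.44 in wild type brains and 0.66, 2.41 and 0.53 in Eltd1-/- brains. The wild type groups overlapped and the Eltd1-/- groups did not. The log2 change was 1.94 (SE 0.61; limma, adjusted p = 0.0322) in the average, and the call was lost without Eltd1-/- tumour replicates 1 (0.0762) or 2 (0.119), wild type tumour replicate 1 (0.0591), wild type brain replicate 3 (0.0688), or Eltd1-/- brain replicates 1 (0.0658) or 3 (0.0694). Adamts4, which also cuts proteoglycans, was at 3.19, 3.25 and 6.75 FPKM in wild type tumours, 3.55 and 8.40 in Eltd1-/- tumours, 8.27, 7.68 and 6.57 in wild type brains and 7.31, 4.95 and 4.57 in Eltd1-/- brains, with a log2 change of -0.35 (SE 0.42) that did not pass.

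The procollagen-trimming enzymes Adamts14 and Adamts3 moved in opposite directions. Adamts14 was at 3.70, 14.0 and 3.58 FPKM in wild type tumours and 7.60 and 11.8 in Eltd1-/- tumours, and at 0 in the brains except 0.04 in Eltd1-/- brain replicate 2. Its adjusted p (limma) was 0.00856 in wild type and 0.0101 in Eltd1-/- mice, and in the latter 0.0769 and 0.0985 without tumour replicates 1 and 2. Adamts3, which also processes the lymphatic growth factor Vegfc, was at 0.43, 0 and 3.64 FPKM in wild type tumours, 0.75 and 2.40 in Eltd1-/- tumours, 7.33, 7.23 and 8.04 in wild type brains and 5.74, 10.5 and 8.82 in Eltd1-/- brains. All tumours were below all brains, with a log2 change of -2.04 (SE 0.50; limma) and an adjusted p of 0.011. The call was lost without Eltd1-/- tumour replicate 1, where the change was -1.81. Adamts3 passed in wild type (limma, adjusted p = 0.0423, lost in 15 of 21 alternatives) but not in Eltd1-/- mice (adjusted p = 0.147). Their summed level with Adamts2, of the same subfamily, overlapped between the tissues, at 4.72 to 14.7 FPKM in tumours and 7.53 to 16.9 in brains.

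Adamts12 rose from at most 0.51 FPKM in brains to between 0.54 and 3.10 in tumours (log2 change 1.07, SE 0.36; limma, adjusted p = 0.0435). The call was lost without Eltd1-/- tumour replicates 1 (0.15) or 2 (0.0917), wild type tumour replicate 2 (0.0571), wild type brain replicates 1 (0.0701), 2 (0.0727) or 3 (0.0635), or Eltd1-/- brain replicates 2 (0.084) or 3 (0.0888). Adamts13, which cuts von Willebrand factor, was at 15.0 FPKM in wild type brain replicate 1, 0.08 in wild type tumour replicate 1 and 0 elsewhere.

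None of the 5 Adamtsl genes passed between tumour and brain (limma; 1 had an unadjusted p under 0.05 in wild type mice and 0 in Eltd1-/- mice or in the average), and their levels varied widely within groups. Adamtsl1 was at 0.65, 0 and 2.83 FPKM in wild type tumours, 0.17 and 0.66 in Eltd1-/- tumours, 2.85, 0 and 2.52 in wild type brains and 32.5, 0.47 and 8.11 in Eltd1-/- brains. Adamtsl4 was at 1.92, 0 and 5.74 in wild type tumours, 1.10 and 2.23 in Eltd1-/- tumours, 0.57, 38.1 and 4.01 in wild type brains and 22.0, 1.83 and 6.53 in Eltd1-/- brains. In both genes the high values came from 1 or 2 brain libraries. Adamtsl2, which binds a carrier protein of transforming growth factor beta, was at 0.54, 3.50 and 0.97 in wild type tumours, 0.91 and 7.40 in Eltd1-/- tumours, 1.48, 0 and 6.28 in wild type brains and 4.42, 1.22 and 18.0 in Eltd1-/- brains.

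The inhibitors split. Timp1, the inhibitor that cytokines induce, was at 4.81, 17.9 and 1.99 FPKM in wild type tumours and 4.89 and 7.14 in Eltd1-/- tumours, and at 0 in the brains except 0.25 in Eltd1-/- brain replicate 3. Its adjusted p for tumour against brain (limma) was 0.0141 in wild type and 0.049 in Eltd1-/- mice. The Eltd1-/- call was lost in 12 of 21 alternatives, among them those without either of its tumours (0.224 and 0.222), any of its brains (0.103 to 0.124), any wild type brain (0.0608 to 0.0712) or wild type tumour replicate 1 (0.0571).

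Timp2, which binds Mmp14 and takes part in Mmp2 activation, was at 12.7, 1.94 and 20.9 FPKM in wild type tumours and 6.85 and 16.8 in Eltd1-/- tumours. It was at 57.9, 114 and 80.9 in wild type brains and 76.3, 138 and 71.8 in Eltd1-/- brains, above every tumour. Timp2 changed in log2 by -3.10 (SE 0.67; limma, adjusted p = 0.0104) in wild type and -2.96 (SE 0.75; adjusted p = 0.0371) in Eltd1-/- mice. The Eltd1-/- call was lost in 10 of 21 alternatives, among them those without either of its tumours (0.335 and 0.0935), any of its brains (0.0784 to 0.119) or wild type brain replicate 3 (0.0572).

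Timp3, which is held in the matrix and also inhibits Adam17 and Adamts enzymes, was at 7.51, 6.59 and 6.88 FPKM in wild type tumours, 19.8 and 14.2 in Eltd1-/- tumours, 35.3, 16.9 and 29.5 in wild type brains and 34.4, 44.4 and 44.4 in Eltd1-/- brains. A single tumour library, at 19.8, lay above the lowest brain, at 16.9. The log2 change was -1.76 (SE 0.41; limma, adjusted p = 0.0132) in wild type and -1.23 (SE 0.45; adjusted p = 0.124) in Eltd1-/- mice, and the difference between these changes did not pass. Timp4 was at 2.40, 0 and 4.58 FPKM in wild type tumours, 2.39 and 3.34 in Eltd1-/- tumours, 0, 0 and 8.46 in wild type brains and 8.52, 13.9 and 1.98 in Eltd1-/- brains. The groups overlapped, and its log2 change of -0.32 (SE 0.75) did not pass and changed sign with other settings.

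Reck was at 8.98, 0 and 0.86 FPKM in wild type tumours and 2.25 and 13.0 in Eltd1-/- tumours. It was at 13.1, 22.4 and 16.6 in wild type brains and 57.6, 21.5 and 21.0 in Eltd1-/- brains. The highest tumour lay just under the lowest brain. In the average Reck had a log2 change of -2.48 (SE 0.65; limma) with an adjusted p of 0.0146. The call was lost without Eltd1-/- tumour replicate 1, where the change was -1.95. Within wild type mice the change was -2.76 (SE 0.86; limma, adjusted p = 0.0444). This call was lost in 15 of 21 alternatives, among them the fit without wild type tumour replicate 2 (0.125). Reck did not pass in Eltd1-/- mice (-2.19, SE 0.97; adjusted p = 0.189).

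**Figure D4:**
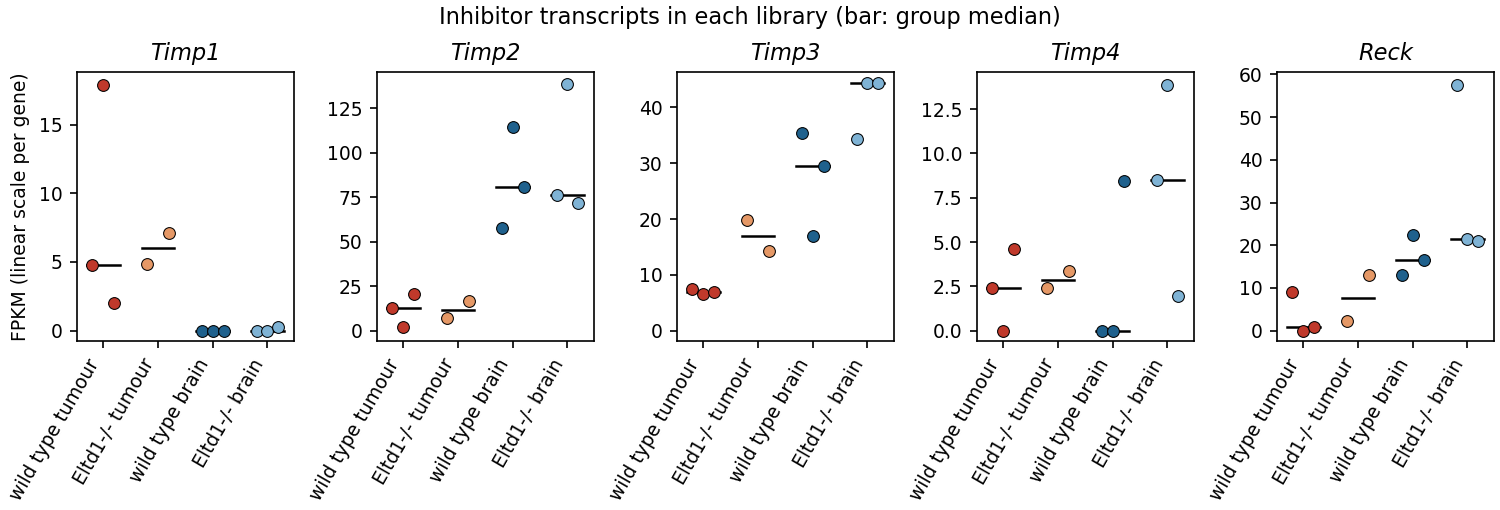
Each point is the FPKM of 1 library on a linear axis that differs between the 5 panels, and each bar is a group's median. Timp1 is above 0 in the 5 tumours and at or near 0 in the brains, Timp2 and Reck are higher in all brains than in any tumour, and Timp3 and Timp4 overlap.

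Timp1, Timp3 and Timp4 each overlap a synapsin gene in RefSeq, with the use of strand in counting not given in the sources used here. The levels of these pairs are therefore uncertain. Syn1, which overlaps Timp1, was at 0 to 45.4 FPKM in tumours and 54.7 to 87.9 in brains, the opposite direction to Timp1. Syn3, which overlaps Timp3, was at 4.16 to 11.3 in tumours and 16.0 to 36.6 in brains, in the same direction as Timp3. Syn2, which overlaps Timp4, was at 0 to 75.1 in tumours and 91.8 to 143 in brains. Synapsins are neuronal proteins of synaptic vesicles.

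The 23 Mmp genes summed to 114 ± 61.4 FPKM (SD, n = 3) in wild type tumours, 158 ± 4.58 (n = 2) in Eltd1-/- tumours, 55.1 ± 17.3 (n = 3) in wild type brains and 46.9 ± 6.84 (n = 3) in Eltd1-/- brains. Wild type tumour replicate 3, at 57.8, lay below wild type brain replicate 2, at 74.9. The 4 Timp genes summed to 29.4 ± 4.30, 37.7 ± 5.33, 114 ± 19.3 and 145 ± 44.9 FPKM in the same order. The Mmp sum divided by the Timp sum was 3.80, 6.79 and 1.69 in wild type tumours and 4.75 and 3.73 in Eltd1-/- tumours, and 0.504, 0.571 and 0.364 in wild type brains and 0.444, 0.245 and 0.334 in Eltd1-/- brains. All tumours were above the brains in this ratio. Timp2 made up 73.7% and 66.0% of the mean Timp sum in wild type and Eltd1-/- brains. In the average over genotypes 9 of 10 neuron and 7 of 9 oligodendrocyte markers fell, against 17.6% of all genes. Of 9 astrocyte markers 4 fell and 1 rose. The part of these cell types in the ratio was not tested. The overlap with synapsin genes leaves the Timp sum uncertain too. Timp1 made up 5.8% to 67.7% of the Timp sum in tumours, the highest in wild type tumour replicate 2, and 0% to 0.213% in brains. The 33 Adam genes summed to 102 to 251 FPKM in tumours and 247 to 441 in brains, and the 19 Adamts genes to 49.4 to 104 and 34.6 to 64.6. These sums were given no test.

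**Figure D5:**
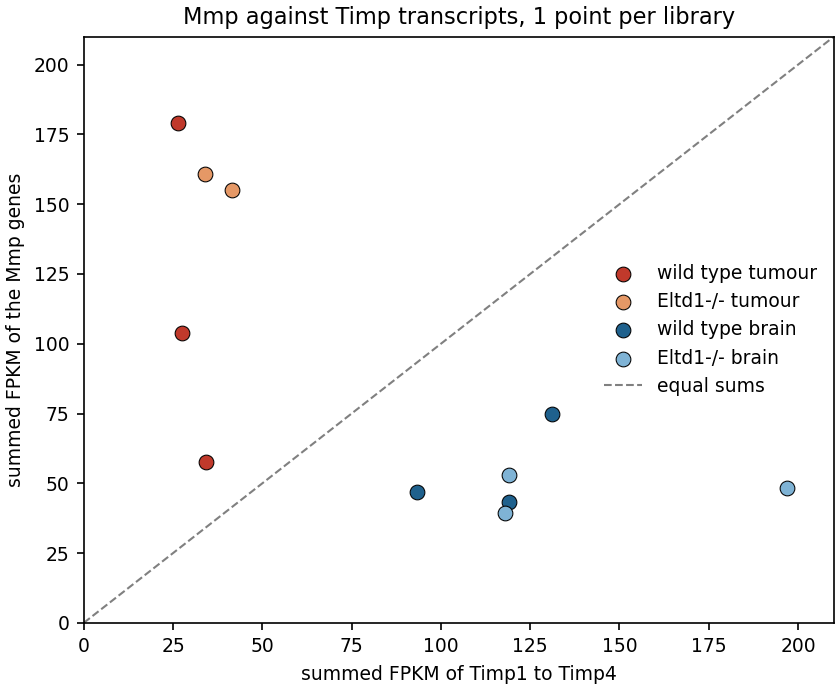
Each point is 1 of the 11 libraries, with the summed FPKM of Timp1 to Timp4 on the horizontal axis and of the 23 Mmp genes on the vertical axis, both linear. The 5 tumour libraries lie above the dashed line of equal sums and the 6 brain libraries below it, and wild type tumour replicate 3, at a ratio of 1.69, is the tumour nearest to the line.

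The most abundant members differed between tissues in some families and genotypes. In the Mmp family Mmp2 made up 20.4% of the mean sum in Eltd1-/- tumours and was followed by Mmp15 (19.7%) and Mmp14 (17.1%). In wild type tumours Mmp16 led with 32.1%, through the single high value of replicate 2, before Mmp2 (20.5%) and Mmp14 (18.8%). In wild type brains Mmp16 also led with 25.8%, again through a high value of replicate 2 (32.7 FPKM against 6.41 and 3.48), before Mmp17 (21.7%). In Eltd1-/- brains Mmp17 led with 23.3%, before Mmp16 (17.0%). In the Adam family Adam9 led both tumour groups (20.7% in wild type, 25.3% in Eltd1-/-) and Adam23 both brain groups (27.2% and 32.5%). Adamts1 made up 49.0% and 47.3% of the Adamts sum in wild type and Eltd1-/- tumours, and 18.2% and 21.8% in the brains, where it was still first in wild type and second to Adamts3 (23.0%) in Eltd1-/- mice. Timp2 was first in wild type tumours (40.3%) and in both brain groups (73.7% and 66.0%), and Timp3 in Eltd1-/- tumours (45.1%).

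The other question was whether loss of Eltd1 changes these genes. No member passed for a difference between genotypes in tumour or in brain, or for a genotype effect that differed between the tissues (limma, adjusted p of 1 for those named here). At an unadjusted p under 0.05 there were 4 of 47 in tumour, 1 in brain and 0 for the difference, against 485, 679 and 496 of all 15604 genes. After adjustment 0.0192% of all genes passed in tumour, 0.00641% in brain and 0.00641% for the difference, so few genes of any kind passed at this number of libraries.

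In tumours the smallest p-values belonged to Adam8 (log2 change 2.11 from wild type to Eltd1-/-, SE 0.75, unadjusted p = 0.0162 in limma) and Mmp17 (1.86, SE 0.72, unadjusted p = 0.0241). Timp3 came next (1.16, SE 0.45, unadjusted p = 0.0264 in limma). Mmp12 was the other of the 4 (1.68, SE 0.75, unadjusted p = 0.0458), and its wild type tumour replicate 2, at 15.1 FPKM, lay between the Eltd1-/- tumours. Microglia and macrophage markers summed to 460 and 451 FPKM in Eltd1-/- tumours and to 360, 266 and 160 in wild type tumours, and mural cell markers to 79.7 and 77.2 against 67.4, 36.1 and 27.1. The neutrophil markers summed to 5.36 and 6.86 against 0.14, 0 and 0.515, the fibroblast markers to 75.2 and 68.6 against 38.2, 17.8 and 36.8, and the endothelial markers to 665 and 718 against 446, 588 and 366. The neuron markers, at 638 and 1270 against 96.5, 421 and 2750, overlapped between the genotypes. So did the sums of the astrocyte, oligodendrocyte, lymphocyte and glioma markers. No marker of any list passed between the genotypes in tumour, and 1 of 8 neutrophil markers was tested. The part of these cell types in the differences was not tested. In the lower direction were Adamtsl3 (-1.06, SE 0.63) and Adamtsl5 (-0.57, SE 0.80), neither with an unadjusted p under 0.05.

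In brains Adamts17, a secreted protease with roles in connective tissue, was at 6.25, 6.23 and 1.02 FPKM in wild type and 0, 0.18 and 1.22 in Eltd1-/- mice (log2 change -1.78, SE 0.62; limma, unadjusted p = 0.0151, adjusted p = 1). The groups overlapped in 1 library of each. Adamts9 was next in the lower direction (-1.37, SE 0.81), and Timp4 (1.83, SE 1.00) and Adamtsl1 (1.68, SE 1.03) had the smallest p in the higher direction. None of these passed. Mmp2 had a genotype change of 0.48 (SE 0.70) in tumour and -0.81 (SE 0.63) in brain.

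Genes that work with the metalloproteases were taken from lists chosen by function. Their counts are for the average over genotypes, in which 12.6% of all genes rose and 17.6% fell, and fewer passed within each genotype for most lists. Among 19 tested activators and cofactors 3 rose and 5 fell (1 and 4 in wild type, 0 and 1 in Eltd1-/- mice), with a median log2 change of 0.22. Those that rose were Frmd8 (1.67, SE 0.40), Plau (2.29, SE 0.59) and Itgav (1.03, SE 0.27). Bsg, a membrane protein of brain endothelium known to induce Mmp production, was at 218 to 533 FPKM in tumours and 1710 to 2730 in brains, which did not overlap (-2.66, SE 0.21; limma, adjusted p = 1.59e-05). The tetraspanins Tspan5 (-2.09, SE 0.37) and Tspan17 (-2.61, SE 0.57), which escort Adam10 to the cell surface, fell, as did the precursor-processing protease Pcsk5 (-1.81, SE 0.42), while Adam10 itself did not pass.

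Among 14 genes listed as other inhibitors and clearance genes, not all of them inhibitors, 3 rose and 4 fell (median -0.11). These were 2 and 4 in wild type and 3 and 2 in Eltd1-/- mice. Spock2, a brain matrix proteoglycan, was at 27.6 to 86.6 FPKM in tumours and 383 to 507 in brains (-2.95, SE 0.28; limma, adjusted p = 3.8e-05). The fall of Spock2 is not read here as loss of an inhibitor. Its relative Spock3 also fell (-3.47, SE 0.57). Pcolce, an enhancer of procollagen processing that also has inhibitor activity, was at 54.4 to 181 FPKM in tumours and 0 to 7.59 in brains (5.62, SE 0.63; adjusted p = 0.000104). Thbs2, which helps clear Mmp2, rose by 2.46 (SE 0.42). Of 8 other metalloendopeptidases the insulin-degrading enzyme Ide rose (1.85, SE 0.30) and the endothelin-converting enzyme Ece1 fell (-1.10, SE 0.26).

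The substrates moved both ways. Of 29 matrix substrates 7 rose and 7 fell (median -0.02), or 2 and 4 in wild type and 1 and 1 in Eltd1-/- mice. The fibrillar collagen Col3a1 was at 15.3 to 38.2 FPKM in tumours and 0 to 1.02 in brains (4.06, SE 0.43; limma, adjusted p = 7.55e-05), and the fibrillin Fbn2 also rose (1.95, SE 0.38). The astrocytic matrix protein Sparcl1 (-2.04, SE 0.33) and the perinodal link protein Hapln2 (-3.48, SE 0.67) fell. Of 33 membrane proteins known to be shed 4 rose and 7 fell (median -0.28), shares near those of all genes, or 2 and 7 in wild type and 2 and 2 in Eltd1-/- mice. Axl, a receptor tyrosine kinase, rose by 3.52 (SE 0.36), and Cd44, the hyaluronan receptor, by 3.66 (SE 0.48). Tek, the endothelial angiopoietin receptor, fell (-2.61, SE 0.28), as did the amyloid precursor App (-1.86, SE 0.30).

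Of 9 partners of Reck in Wnt signalling of brain vessels 1 rose and 5 fell (0 and 5 in wild type, 0 and 1 in Eltd1-/- mice), with a median log2 change of -1.65 against -0.25 over all genes. The receptor Fzd4 was at 0 to 3.54 FPKM in tumours and 7.09 to 14.5 in brains (-2.32, SE 0.45; limma, adjusted p = 0.00344). Lrp5 (-1.74, SE 0.50), a coreceptor, and the targets Lef1 (-1.92, SE 0.26) and Apcdd1 (-1.65, SE 0.26) fell as well, whereas the coreceptor Lrp6 rose (1.07, SE 0.36). The 15 endothelial markers had a median of -1.41, and the part of endothelial RNA yield in the values of Reck and its partners was not tested.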

How the data were processed

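Per the file headers, the values the authors deposited are FPKM, 1 for each gene in each library. TopHat2 2.1.1, Cufflinks 2.2.1 and the build GRCm38 are named in the submitters' processing notes, with their parameters and the use of strand not given in the sources used here. Ribosomal RNA was depleted and libraries were made with a stranded kit, per the labels' protocols. Entries of 210 symbols listed more than once were summed, which left 45803 of 46073 entries. Between 0.452% and 8.0% of genes under 2 FPKM lay on the most frequent ratio of a pair of libraries, so whole reads were not recovered and the number of libraries limits the precision.

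Group means of the 11 libraries were fitted on log2(FPKM + 1), with a pseudocount of 1, for 15604 genes of at least 1 FPKM in at least 2 libraries, with limma 3.58.1 in R 4.3.3 (lmFit, contrasts.fit, then eBayes with a trended variance, 7 residual degrees of freedom, two-sided). P-values were adjusted by Benjamini-Hochberg over all genes, with a threshold of 0.05. The fit was tested on simulated data. Replicate numbers follow deposit order and pair nothing.

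Genes were named with every library's value where they passed and reached a mean of 5 FPKM in the higher group, or were among the 3 most abundant of their family; Timp1 to Timp4, Reck, Mmp2, Mmp9, Mmp14, Adam10 and Adam17 were always named, as were the 2 genes of smallest p in each direction of a genotype comparison, and 2 to 4 genes of smallest p of each list. Adam9, Adam12, Adamts12, Adamts13, Mmp3, Mmp10, Lrp6, Frmd8, Plau and Itgav were named after their values were seen, as were the groups by role. The members and lists were chosen with earlier results of these data known. The alternatives were other pseudocounts, filters, scalings, variance models, only the groups compared, and leaving out libraries.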

Additional observations from a re-analysis of the deposited data

How the results depend on the processing

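In the average over genotypes 11 of the 20 calls passed in all 20 alternatives: Mmp2, Mmp12, Mmp13, Adamts1, Adamts14, Timp1, Adam23, Timp2, Timp3, Mmp24 and Mmp28. The count ranged from 12 (without Eltd1-/- tumour replicate 1) to 20 when libraries were left out singly. In wild type mice the count of 14 was 9 with a pseudocount of 0.1, 9 with no filter, 9 without wild type tumour replicates 2 and 3, 3 with only the groups compared, and 7 to 15 with single libraries left out. In Eltd1-/- mice the count of 7 was 11 with quantile normalization, 18 with library weights, 12 without wild type tumour replicates 2 and 3, 14 with only the groups compared, and 0 to 10 with single libraries left out, 0 without either tumour replicate. Upper quartile scaling split the Eltd1-/- calls into 7 higher and 0 lower. The median of all genes in the average was -0.25 as deposited, -0.12 with upper quartile scaling and -0.06 with quantile normalization. Timp4 reversed to 0.0755 with a pseudocount of 0.1 and ranged from -0.65 to 0.22 with single libraries left out; Adamtsl5 in tumours ranged from -1.27 to 0.20. Genotype comparisons had 0 members called in every alternative. The cause of these shifts was not tested. Unknown depth and 2 Eltd1-/- tumours limit these values.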
